A study of Mus musculus with 4 samples.

Results

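The genes examined here encode the fibroblast growth factor (Fgf) ligands, their receptors, the docking proteins that sit under the receptors, the feedback inhibitors of the pathway and a pair of transcription factors that it induces, 36 genes in all. The data are a deposited list of 39231 genomic regions in which captured, methylated DNA was higher in oil than in tamoxifen satellite cells, and the regions of a member are those that overlap its mm10 gene body or the 2000 bp on either side of it by at least 1 bp. This gave 51 regions in 17 of the 36 genes. The other 19 genes had none.

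Satellite cells, the stem cells of skeletal muscle, came from hindlimb muscles of mice aged 9 weeks and were cultured for 3 days on Matrigel. One group of mice had been given tamoxifen on 5 days in a row, 150 µl at 20 mg/ml in corn oil, to set off the Cre recombination that removes Uhrf1, which brings the maintenance methyltransferase to newly copied DNA. The other group is labelled as oil, the solvent of the drug. Of the 4 libraries of the study, 1 for each treatment and DNA fraction, the list compares 1 oil with 1 tamoxifen library, taken here to be those of the methylated fraction, since its header does not name the fraction. The direction rests on the caller's command line in that header, which has oil as treatment and tamoxifen as control, although the list's own name puts tamoxifen first. The Cre driver, the Uhrf1 allele, whether the oil mice carried them and how many mice went into a culture are not given in the sources used here. There is no replicate, so no spread between animals is known, no test between conditions was made, and Uhrf1 loss, the drug itself and differences between the cultures cannot be told apart.

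Fgf ligands bind receptor tyrosine kinases at the cell surface with the help of heparan sulfate. The receptor phosphorylates the docking protein Frs2, which recruits the Ras and ERK cascade, and ERK then switches on ETS factors such as Etv4 and Etv5 together with sprouty, spred and Dusp6 proteins that dampen the same cascade. In muscle this pathway is known as a strong mitogenic signal for satellite cells, and Spry1 as a brake on it in quiescent ones.

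Sequences upstream of the genes came from RefSeq (GRCm38.p6, the same assembly as mm10), which listed a window of 250 bp before to 50 bp after a transcription start for 28 of the 36 members. No member had a region over such a window, and across all 17492 protein-coding genes with a listed window only 0.909% did. In 4 members, Fgf7, Fgf5, Fgfr3 and Fgfr4, a region lay within 2000 bp of a listed start, 14.3% of the 28, where the share of all such protein-coding genes was 8.32%. Their windows are printed here, at the start nearest the region, because these are the member starts closest to captured DNA that fell, and that of Spry1, which had no region within 2000 bp, is shown beside them. Capitals mark CG, the dinucleotide whose methylation the MBD2 protein binds. Each is read 5′ to 3′ on the gene's own strand.
Fgf7, chr2:126034408-126034707, plus strand: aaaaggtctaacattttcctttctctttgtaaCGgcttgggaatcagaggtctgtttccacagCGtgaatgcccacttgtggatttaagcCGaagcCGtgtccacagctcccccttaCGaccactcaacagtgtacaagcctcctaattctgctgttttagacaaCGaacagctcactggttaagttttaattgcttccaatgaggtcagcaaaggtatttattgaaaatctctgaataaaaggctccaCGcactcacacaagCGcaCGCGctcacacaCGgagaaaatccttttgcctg
Fgf5, chr5:98253934-98254233, plus strand: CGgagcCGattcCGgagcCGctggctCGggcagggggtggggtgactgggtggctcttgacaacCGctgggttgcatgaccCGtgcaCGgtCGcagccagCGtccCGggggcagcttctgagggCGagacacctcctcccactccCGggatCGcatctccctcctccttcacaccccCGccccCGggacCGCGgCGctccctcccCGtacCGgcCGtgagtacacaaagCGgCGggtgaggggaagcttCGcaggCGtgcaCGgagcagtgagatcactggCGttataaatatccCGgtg
Fgfr3, chr5:33722056-33722355, plus strand: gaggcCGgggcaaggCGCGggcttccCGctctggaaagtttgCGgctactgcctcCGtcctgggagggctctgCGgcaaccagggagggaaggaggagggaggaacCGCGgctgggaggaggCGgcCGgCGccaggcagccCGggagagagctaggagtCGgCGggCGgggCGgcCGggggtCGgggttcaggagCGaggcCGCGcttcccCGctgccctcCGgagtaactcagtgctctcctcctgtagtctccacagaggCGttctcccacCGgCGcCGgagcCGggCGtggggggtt
Fgfr4, chr13:55152568-55152867, plus strand: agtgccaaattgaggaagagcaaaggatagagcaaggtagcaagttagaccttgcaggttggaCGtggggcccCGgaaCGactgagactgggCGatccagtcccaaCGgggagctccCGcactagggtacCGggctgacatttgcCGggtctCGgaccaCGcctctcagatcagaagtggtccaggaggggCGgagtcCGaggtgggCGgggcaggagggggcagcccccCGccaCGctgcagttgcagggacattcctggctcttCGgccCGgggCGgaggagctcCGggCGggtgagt
Spry1, chr3:37639697-37639996, plus strand: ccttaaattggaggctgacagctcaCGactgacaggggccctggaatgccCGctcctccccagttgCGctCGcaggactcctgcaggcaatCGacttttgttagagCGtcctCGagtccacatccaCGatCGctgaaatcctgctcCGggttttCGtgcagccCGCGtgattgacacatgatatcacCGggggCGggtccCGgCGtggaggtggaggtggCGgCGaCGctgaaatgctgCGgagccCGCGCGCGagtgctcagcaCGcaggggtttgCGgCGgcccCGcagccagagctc

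The windows held 11 CG in Fgf7, 29 in Fgf5, 30 in Fgfr3, 20 in Fgfr4 and 29 in Spry1. Over the 33 windows of the 28 members the median was 20 CG (quartiles 12 and 29), and over all 21263 windows of protein-coding genes it was 13 (quartiles 4 and 24), with at least 1 CG in 95.4% of them. The 161 windows anywhere in the genome that a region did overlap had a median of 9 CG (quartiles 6 and 13). Of the windows shown, only that of Fgf7 lay within those quartiles. The CG of the regions themselves was not analysed here, since no genome sequence was used.

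Depth was 19534328 oil against 25614791 tamoxifen tags after duplicates had been dropped, and the tamoxifen library was scaled by 0.763 to match. Before that step the libraries were nearly equal, with 35216008 oil and 36519772 tamoxifen tags. The rate of redundant tags was 0.45 in oil and 0.30 in tamoxifen, so the factor came mostly from unequal duplication. For each region 3 values are given. Oil and tamoxifen tags are unscaled counts of extended tags over the region's summit. The fold is the authors' own oil over tamoxifen value after scaling, with 1 added to both sides. The limits beside it are exact (Clopper-Pearson) 95% limits of the scaled tag ratio without that addition. They cover counting error only, and because a summit is placed where oil is highest, folds lean upward. A lower tag count does not separate less methylation per cell from fewer cells that carry it.

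Taken over the pathway, carrying a region was about as common as in other genes. The 17 of 36 members make 47.2%, and among all 21779 protein-coding genes 45.5% carried a region. Long genes offer more room, so members were also set beside protein-coding genes of their own length. Of 14 members under 10 kb, 2 carried a region (18.9% of protein-coding genes of that length). Of 10 members between 10 and 50 kb, 5 did (50.4%). Of 9 members between 50 and 100 kb, 7 did (72.8%). All 3 of 100 kb or more did, where the share was 85%. The members' counts thus lay near the share of all genes in each class, and 12 of the 19 members without a region were under 10 kb.

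**Figure D1:**
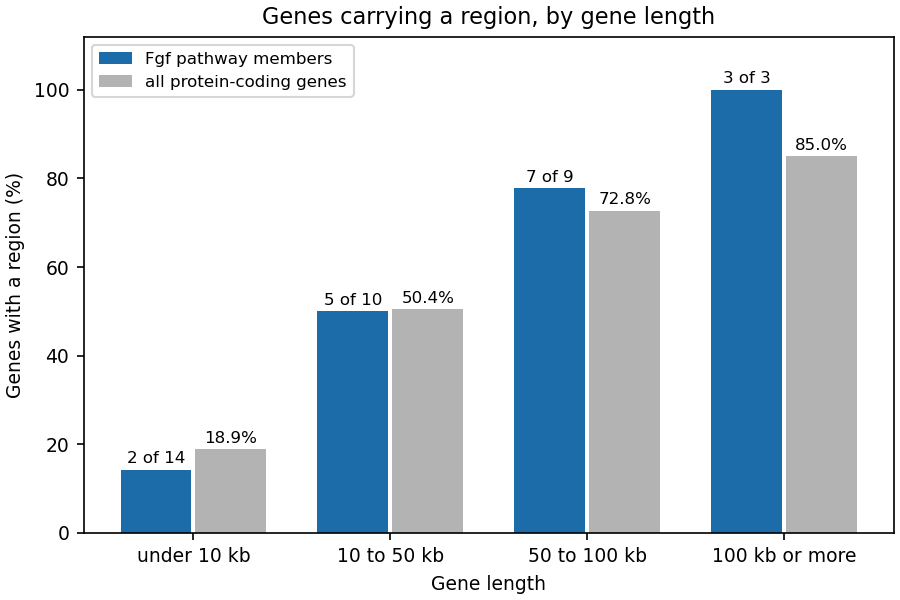
Share of genes with at least 1 region (vertical axis, percent) in 4 classes of gene length (horizontal axis), for the 36 member genes (blue, with counts) and all protein-coding genes (grey). Both rise with gene length, from 2 of 14 members and 18.9% of genes under 10 kb to 3 of 3 members and 85% of genes of 100 kb or more.

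The folds of the members' regions lay in the range of the whole list. The 51 regions had a median fold of 4.28 (quartiles 3.47 and 5.44), and all 39231 regions one of 4.61 (3.67 and 5.87). Members' regions had between 20 and 158 oil tags, and outside 1 region of Etv5 with too few tamoxifen tags to count, the tamoxifen library kept between 7.38% and 41.1% of the oil signal after scaling. The fold was 4 or more in 31 regions, 60.8% of them, where the share of all regions was 66.1%. It was under 3 in 5 regions (9.8%, against 10.2% of all) and 9 or more in 4 (7.84%, against 3.77% of all). Those 4 lay in Etv5, Fgf1, Fgf7 and Fgf2. In density, the members had 2.07 regions per 100 kb of gene and flanks, and all protein-coding genes 2.22. The pooled value leans on Fgf11, Fgf12 and Fgf14, which took 1318 of the members' 2464 kb at 0.53 per 100 kb. Apart from them, it was 2.71 in locally secreted ligands, 0 in endocrine ligands, 3.99 in receptors and 3.04 in inhibitors. The docking protein genes had 7.76 and the ETS genes 8.56, each from 1 gene with regions.

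**Figure D2:**
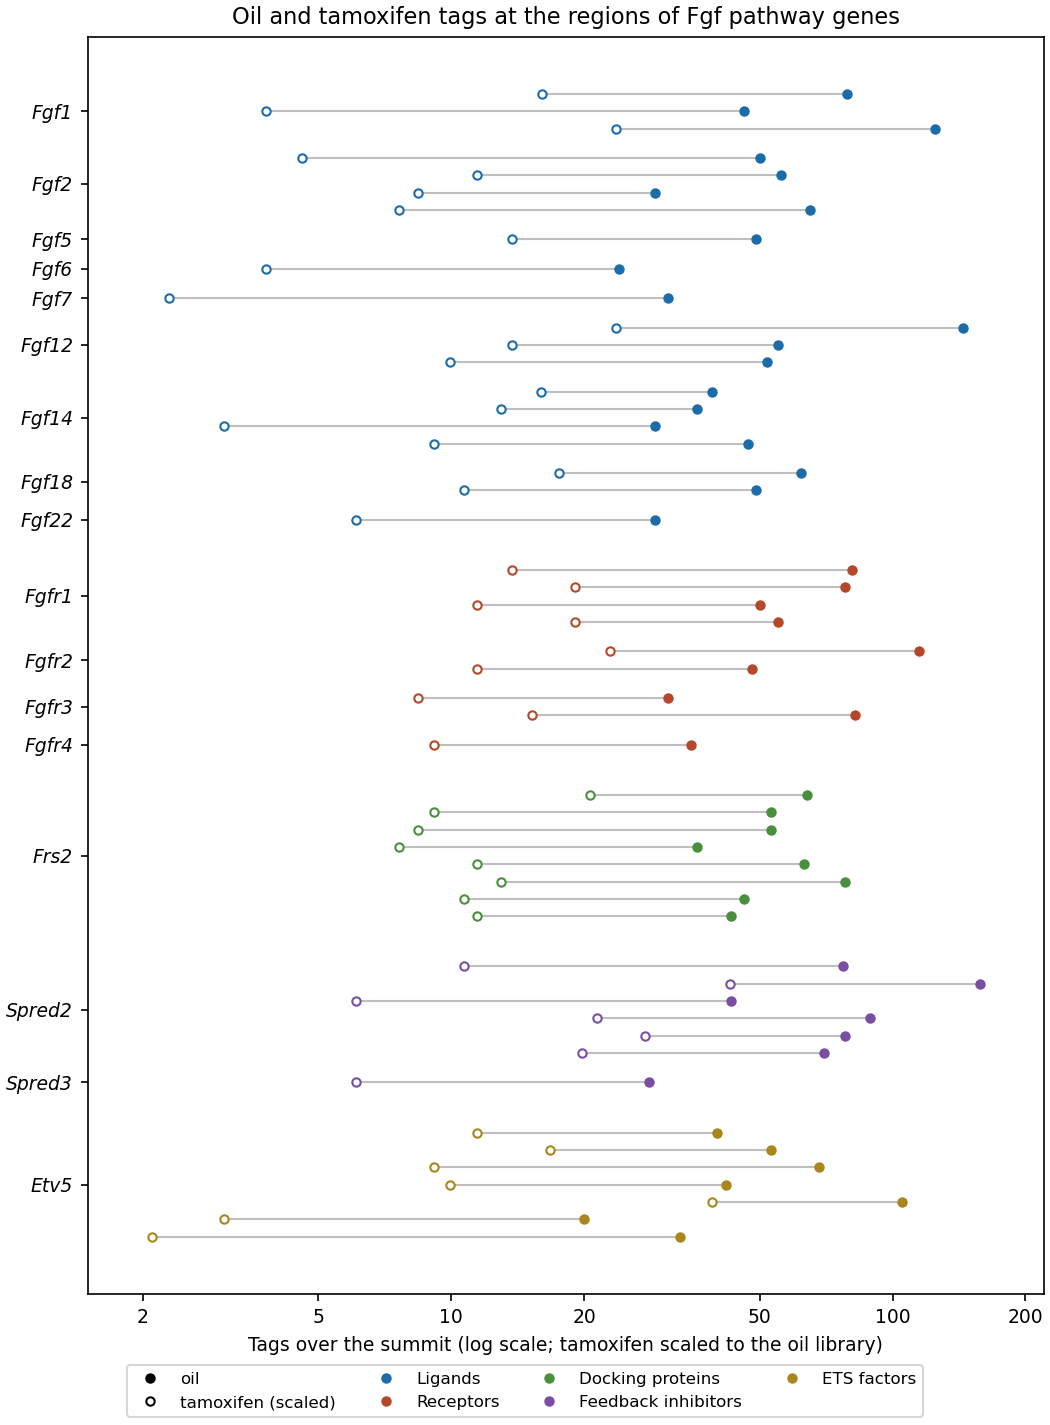
Oil tags (filled) and scaled tamoxifen tags (open) over the summit of each of the 51 regions, on a log axis, grouped by gene and coloured by role. The filled point lies to the right of the open one in every region, as it must in a list of regions called higher in oil. The widest gaps are at Etv5, Fgf1, Fgf7 and Fgf2.

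Among the 20 ligand genes, 9 carried a region (45%, where 45.5% of all protein-coding genes did). They held 20 regions in all with a median fold of 4.72. Fgf2, the ligand best known as a mitogen of cultured satellite cells (chromosome 3, 37348477 to 37410106), carried 4. The first, from 37359569 to 37359849 with its summit 11025 bp past the listed start, had 50 oil against 6 tamoxifen tags (fold 9.15, limits 4.68 to 31.2), above 96.7% of all regions. The next, from 37379297 to 37379545, had 56 oil against 15 tamoxifen tags (fold 4.58, limits 2.73 to 9.32). The third, from 37391017 to 37391398, was the weakest, with 29 oil against 11 tamoxifen tags (fold 3.20, limits 1.68 to 7.67). It no longer passed the p value of the weakest listed region when tamoxifen tags were left unscaled, as was so for 5.34% of all regions. The last, from 37409702 to 37409997 at the far end of the gene, had 65 oil against 10 tamoxifen tags (fold 7.65, limits 4.35 to 18.6), and also lies in Nudt6, a gene that overlaps that end. Within Fgf2 the strongest and the weakest region thus differed in fold, but their limits overlapped.

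Fgf1, a ligand that can bind every Fgf receptor (chromosome 18, 38838672 to 38929470), carried 3 regions, all well inside the gene. The strongest, from 38904954 to 38905212, had 46 oil against 5 tamoxifen tags (fold 9.77, limits 4.81 to 38.9). The best covered, from 38919447 to 38919782, had 125 oil against 31 tamoxifen tags (fold 5.11, limits 3.54 to 8.11). The remaining region, from 38887766, had 79 and 21 tags and a fold of 4.70. All 3 also lie in Arhgap26, a gene annotated over the same stretch, and the strongest and the best covered lie in Gm5820 as well. The 3 regions therefore cannot be assigned to Fgf1 alone.

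Fgf7, also called keratinocyte growth factor, carried a single region close to its listed start (chromosome 2, 126035649 to 126035901), and this stretch is shared with Fam227b. Its summit lies 1173 bp past the start shown above. Oil had 31 tags there and tamoxifen 3 (fold 9.73, limits 4.23 to 69.3), above 97.6% of all regions. Fgf5, known as a regulator of the hair cycle, had its only region at nearly the same distance, 1143 bp past the start (chromosome 5, 98255256 to 98255468). There 49 oil tags stood against 18 tamoxifen tags (fold 3.40, limits 2.04 to 6.51), above only 18.2% of all regions. The limits of these 2 regions overlapped, and their difference was not tested.

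In Fgf6 and Fgf18 the regions lay at the other end of the gene. Fgf6, a ligand expressed mainly in muscle, had 1 region from 127024469 to 127024689 of chromosome 6, which stops just short of the gene's far end. It was thinly covered, with 24 oil against 5 tamoxifen tags (fold 5.19, limits 2.35 to 21.1). Fgf18, a ligand of skeletal growth on the minus strand of chromosome 11, had 2 regions 365 bp apart in the last part of the gene, with 62 against 23 tags (33117083 to 33117312, fold 3.40) and 49 against 14 tags (33117677 to 33117887, fold 4.28). Fgf22 had 1 region, with 29 oil against 8 tamoxifen tags and a fold of 4.22 (chromosome 10, 79758647 to 79759002). That region begins 852 bp beyond Fgf22 and lies inside its neighbour Rnf126. At a q limit of 1e-10 neither Fgf6 nor Fgf22 kept its region.

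Fgf12 and Fgf14 belong to the homologous factors, which stay inside the cell and bind sodium channels rather than Fgf receptors. They are the longest members, at 595.5 and 703.2 kb, and carried only 3 and 4 regions. Of the 227 protein-coding genes of 500 kb or more, the median held 4 (quartiles 2 and 7), so these counts were usual for their length. The 3 regions of Fgf12 fell within a stretch of 9.9 kb, which is 1.7% of the gene. One of them, from 28500069 to 28500338 of chromosome 16, was the best covered of any ligand region, with 144 oil against 31 tamoxifen tags (fold 5.88, limits 4.11 to 9.29). The other two had 55 against 18 tags (fold 3.80) and 52 against 13 tags (fold 4.86).

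Fgf14 had its regions in 2 pairs. One pair near the far end of the gene held the weakest regions of all members, with 39 against 21 tags (chromosome 14, 123997392 to 123997966, fold 2.35) and 36 against 17 tags (123999374 to 123999604, fold 2.65). Both lie also in the long noncoding gene 1700024B18Rik, and with unscaled tamoxifen tags neither passed the p value of the weakest listed region. The other pair had 29 against 4 tags (from 124247346, fold 7.41, limits 3.34 to 37.2) and 47 against 12 tags (from 124266477, fold 4.73).

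The 11 ligand genes without a region were Fgf3, Fgf4, Fgf8, Fgf9, Fgf10, Fgf11, Fgf15, Fgf17, Fgf20, Fgf21 and Fgf23. They include all 3 endocrine ligands, Fgf15, Fgf21 and Fgf23, which act at a distance with klotho proteins. These genes are short, at 4.4, 1.6 and 9.4 kb, and of protein-coding genes under 10 kb only 18.9% carried a region. Fgf10, the ligand of limb and lung budding, was at 77.9 kb the longest member with no region. Fgf3, Fgf4 and Fgf15 are neighbours on chromosome 7, and the region nearest to each of them was the same one, from 144909369 to 144909571, at 66021, 44124 and 8416 bp. A gene without a listed region may be unmethylated, equally methylated in both libraries, higher in tamoxifen or thinly covered, and the list does not tell these apart.

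Of the 5 receptor genes, 4 carried a region and only Fgfrl1, whose product lacks the kinase, had none. Among protein-coding genes of their lengths, a region was carried by 50.4% in the class of Fgfr3, Fgfr4 and Fgfrl1, 72.8% in that of Fgfr1 and 85% in that of Fgfr2, so 4 of 5 is not read as particular to receptors. The 9 receptor regions had a median fold of 3.94 and none reached 6. Fgfr1, with Fgfr4 a main receptor of muscle cells, had 4 regions within 8.7 kb near the right-hand end of the gene (chromosome 8, 25518759 to 25575718). The broadest region of any member, 769 bp long, from 25563735 to 25564503, had 81 oil against 18 tamoxifen tags (fold 5.57, limits 3.51 to 10.5). The next from left to right had 78 against 25 tags (from 25568317, fold 3.94) and 50 against 15 tags (from 25570025, fold 4.10). The one nearest the end, from 25572207 to 25572442, had 55 oil against 25 tamoxifen tags and the lowest fold of any receptor region, 2.79 (limits 1.77 to 4.83). With 6.56 regions per 100 kb, Fgfr1 stood above 88.8% of protein-coding genes of 50 to 100 kb.

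Fgfr4 had a single region, upstream of the gene (chromosome 13, 55151013 to 55151213). It ends 1605 bp before the start and had 35 oil against 12 tamoxifen tags (fold 3.55, limits 1.94 to 8.09). It was not past a q limit of 1e-10 and drops out when the gene body alone is counted. Fgfr2, the receptor that Fgf7 and Fgf10 use in epithelia, had 2 regions in its far part (chromosome 7). The region from 130168118 to 130168472 had 115 oil against 30 tamoxifen tags (fold 4.86, limits 3.34 to 7.78), and that from 130198428 to 130198637 had 48 and 15 tags (fold 3.94, limits 2.31 to 8.07). Fgfr3, known as a brake on bone growth, had 1 region just inside its start and 1 beyond its far end (chromosome 5). The former, from 33723620 to 33724013, had 31 oil against 11 tamoxifen tags (fold 3.41, limits 1.81 to 8.15), with its summit 1632 bp past the start shown above. The latter, from 33738827 to 33739100, begins 1759 bp past the gene and had 82 oil against 20 tamoxifen tags (fold 5.11, limits 3.27 to 9.26).

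The docking protein genes were unlike each other. Frs2, the adaptor that couples Fgf receptors to Ras and ERK (chromosome 10, 117070127 to 117148474), carried 8 regions, the most of any member, while its paralog Frs3 carried none. Frs2 is 78.3 kb long and Frs3 16.7 kb, and 50.4% of protein-coding genes of 10 to 50 kb carried a region. At 9.71 regions per 100 kb, Frs2 stood above 96.3% of protein-coding genes of 50 to 100 kb, whose median was 1.83. None of the 8 came within 2000 bp of an end, and 7 lay beyond the midpoint as counted from the start. They were much alike, with 36 to 78 oil tags and folds from 3.01 to 5.75. The best covered, from 117107246 to 117107511, had 78 oil against 17 tamoxifen tags (fold 5.66, limits 3.53 to 10.8), and the next region began 437 bp further on with 46 against 14 tags (fold 4.03). A group of 4 lay closer to the far end. It held 64 against 27 tags (from 117073815, fold 3.01), 53 against 12 (from 117076792, fold 5.32), 53 against 11 (from 117079112, fold 5.75) and 36 against 10 (from 117079836, fold 4.29). Between and beyond these groups were single regions of 63 against 15 tags (from 117093467, fold 5.14) and 43 against 15 tags (from 117134939, fold 3.54).

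**Figure D3:**
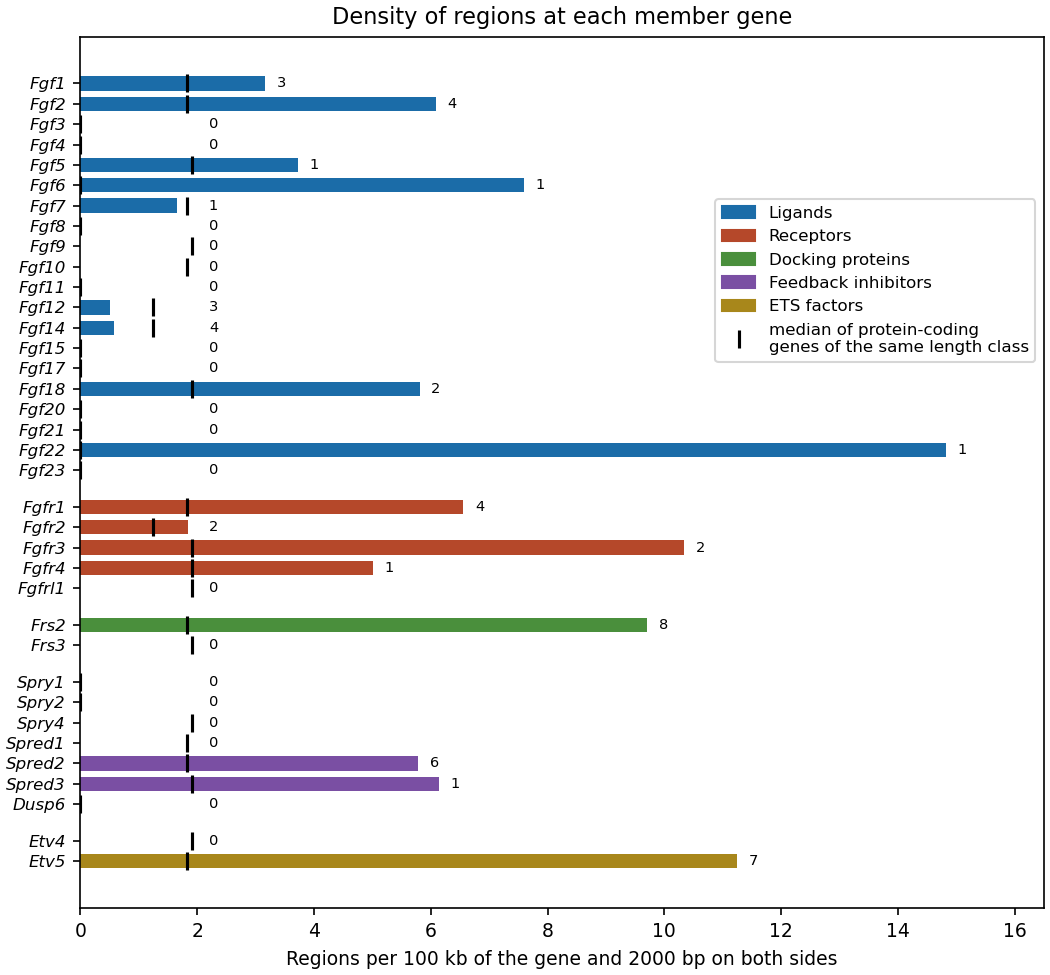
Regions per 100 kb of each member gene and its flanks (bars, coloured by role, with the number of regions beside each), and the median of protein-coding genes of the same length class (black ticks). Etv5, Frs2 and Fgfr3 reach 11.24, 9.71 and 10.34 per 100 kb. The long bars of Fgf22 and Fgf6 rest on 1 region each in a short gene.

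Of the 7 feedback inhibitor genes, 2 carried a region (28.6%, where 45.5% of all protein-coding genes did). None was listed for the sprouty genes Spry1, Spry2 and Spry4, which block the cascade below the receptor, for Dusp6, the phosphatase of ERK, or for Spred1. Spry1, Spry2 and Dusp6 are each under 10 kb, a length at which 18.9% of protein-coding genes carried a region. The share was 50.4% in the class of Spry4 (10 to 50 kb) and 72.8% in that of Spred1 and Spred2 (50 to 100 kb). Spred1 and Spred2 are both long and their proteins both restrain Ras, but they differed in the list, with 0 regions in 61.2 kb of Spred1 and 6 in 99.6 kb of Spred2. For Spred1, the nearest region lay 20787 bp away.

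In Spred2 (chromosome 11, 19924442 to 20024026), 5 of the 6 regions lay beyond the midpoint as counted from the start, and the nearest to the start was 29546 bp from it. The first, from 19953988 to 19954275, had 77 oil against 14 tamoxifen tags and the highest fold, 6.68 (limits 4.05 to 13.8). The second, from 19990379 to 19990712, was the best covered region of any member, with 158 oil against 56 tamoxifen tags (fold 3.64, limits 2.71 to 5.11). The tamoxifen library thus kept 27.0% of the oil signal there and 13.9% at the first. Of the others, 1 had 43 against 8 tags (from 19996995, fold 6.20) and 1 had 89 against 28 (from 20008346, fold 4.03). Toward the far end followed 78 against 36 tags (from 20017775, fold 2.78) and 70 against 26 tags (from 20019922, fold 3.41). Spred3, which lacks a domain that its relatives use to bind the receptor Kit, had a single region (chromosome 7, 29161494 to 29161878). It lies inside the gene with 28 oil against 8 tamoxifen tags (fold 4.08, limits 2.04 to 11.7). That region was not past a q limit of 1e-10, which leaves Spred2 as the single inhibitor with a region at that limit.

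The ETS factor genes differed in the same way as the docking protein genes. Etv5, which is induced by Fgf signalling (chromosome 16, 22381313 to 22439570), carried 7 regions and Etv4 none. Etv5 is 58.3 kb long and Etv4 15.6 kb, in the class of 10 to 50 kb in which 50.4% of protein-coding genes carried a region. With 11.24 regions per 100 kb, Etv5 stood above 97.6% of protein-coding genes of its length class. The region of highest fold among all members, from 22431271 to 22431489, lies 6997 bp past a listed start. Oil had 33 tags there and tamoxifen at most 2. The caller never takes a background under its genome-wide average, 2.10 scaled tags, and that average gave the fold of 10.97, which therefore has no limits. In the middle of the gene, the region from 22409395 to 22409626 had 105 oil against 51 tamoxifen tags and a fold of only 2.66 (limits 1.91 to 3.85), with 37.0% of the oil signal kept. The region from 22392479 to 22392733 had 68 oil against 12 tamoxifen tags (fold 6.80, limits 3.99 to 15.1), and its limits did not overlap those of the middle one. This pair was picked by fold from the 7 regions, and the difference was not tested. The 4 others had 20 against 4 tags (from 22421858, fold 5.18), 42 against 13 (from 22395104, fold 3.94), 53 against 22 (from 22383454, fold 3.04) and 40 against 15 (from 22381252, across the far end, fold 3.30).

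**Figure D4:**
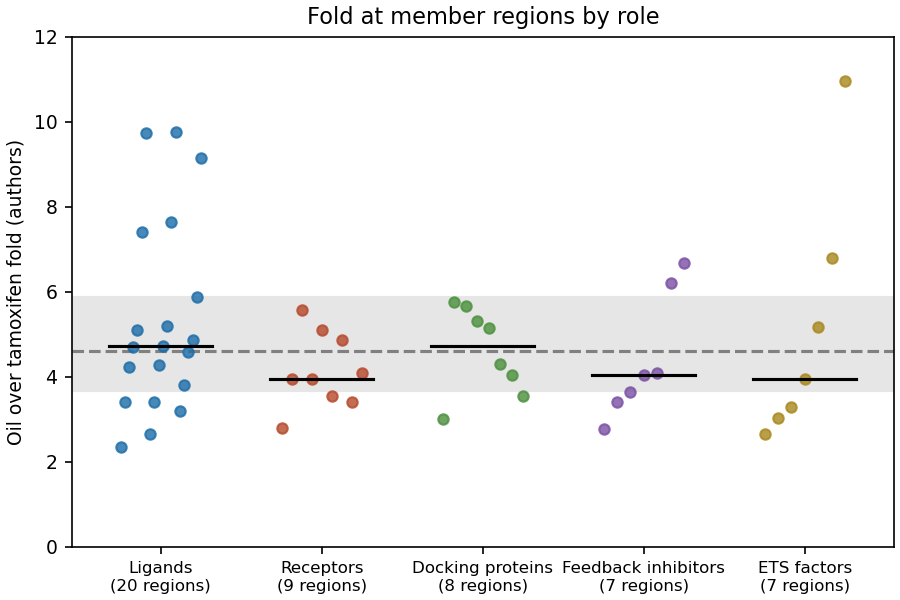
The authors' oil over tamoxifen fold (vertical axis) at each member region, by role, with the role's median (black line) and the median and quartiles of all 39231 regions (dashed line and grey band). Ligands and Frs2 have medians of 4.72, feedback inhibitors 4.03, and receptors and Etv5 3.94, while folds above 7 occur in ligands and Etv5 alone.

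By role, the median fold was 4.72 at the 20 ligand and the 8 Frs2 regions, 4.03 at the 7 inhibitor regions and 3.94 at the 9 receptor and the 7 Etv5 regions. Regions of 1 gene are not replicates, and these differences were not tested. All 5 medians lay within the quartiles of the whole list. Frs2, Etv5 and Spred2 together held 21 of the 51 regions, or 41.2%.

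Within genes, the regions lay mostly far from the ends. Of the 51, 40 were inside the gene and more than 2000 bp from either end, 8 were inside and near an end, and 3 were outside, at Fgfr3, Fgfr4 and Fgf22. In all, 9 of 36 members (25%) had a region within 2000 bp of either end, where 18.5% of protein-coding genes did. At a q limit of 1e-10 these were 5 members. The 18.5% of protein-coding genes was not recomputed at that limit, so the 5 members are not set beside it. In the 13 genes whose strand was listed, 30 of 41 regions inside the gene (73.2%) had their summit beyond the gene's midpoint, and across all protein-coding genes of listed strand 58.7% of 18659 regions did. Without Frs2, Etv5 and Spred2 it was 13 of 20 (65%). Regions of 1 gene share that gene's sequence and are not independent, and this share was not tested.

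**Figure D5:**
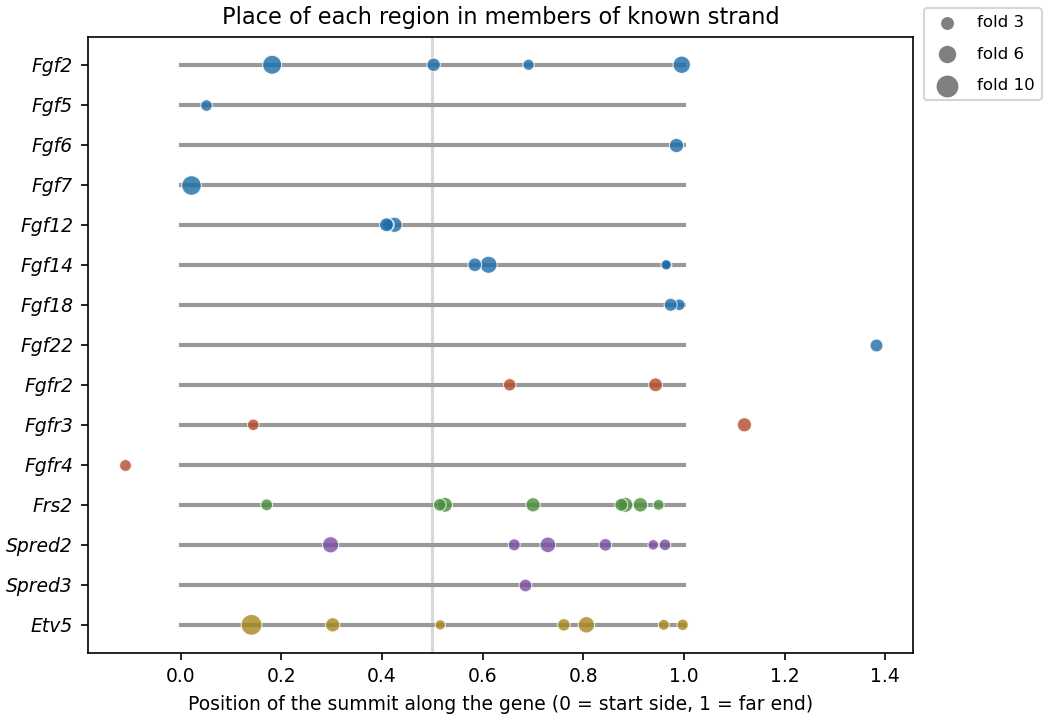
Place of each region's summit along the gene (0 is the start side, 1 the far end, grey lines the gene) in the 15 members with a region and a listed strand, with point area in proportion to fold. Of the 41 summits inside a gene, 30 lie to the right of the middle. The points off the lines are regions in the flanks of Fgf22, Fgfr3 and Fgfr4.

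The 2000 bp limit decided a few memberships. Just inside it were the regions of Fgfr4 at 1605 bp and of Fgfr3 at 1759 bp. Just outside it were regions 2375 bp from Spry4 (48 oil against 11 tamoxifen tags, fold 5.22), 2415 bp from Spred3 (39 and 10 tags, fold 4.64), 2426 bp from Fgf11 (72 and 18 tags, fold 4.96) and 2514 bp from Fgf23 (39 and 19 tags, fold 2.58). With 5000 bp on both sides, 22 of the 36 members carried a region, and 50.8% of protein-coding genes did.

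Of 58 other genes of the pathway with a position, 38 carried a region (65.5%). Across all protein-coding genes the share was 45.5%, but these genes were long, with a median of 64.3 kb against 15.5 kb for the members. Among protein-coding genes of 50 to 100 kb it was 72.8%. The lengths ran from 2 kb (Fgfbp3) to 523.4 kb (Fgf13), and no share matched for length was computed for these lists. Among 23 co-receptor and matrix genes 15 had a region, with the highest folds in the heparan sulfate proteoglycan gene Hspg2 (10.97, 33 oil tags against 2 or fewer), the sulfatase gene Sulf2 (10.94, 60 against 6), and the heparan sulfate enzyme genes Hs2st1 (9.03, 27 against 2 or fewer) and Ndst1 (8.82, 28 against 3). The folds of Hspg2 and Hs2st1 rest on the caller's genome-wide average and have no limits. Limits were 5.68 to 37.1 at Sulf2 and 3.78 to 62.9 at Ndst1. Hspg2 had 11 regions and the heparan sulfate polymerase gene Ext1 10. Klb, the co-receptor that Fgf15 and Fgf21 need, had 3, and Kl, which Fgf23 needs, had none.

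Among 23 genes of the Ras and ERK relay, with a median length of 60.9 kb, 15 carried a region (65.2%). Of protein-coding genes of 50 to 100 kb, 72.8% did. That is not a matched share, as the relay genes ran from 4.1 kb (Hras) to 214.3 kb (Rps6ka2). The highest folds were in the ERK-activated kinase genes Rps6ka2 (9.43, 30 against 3 tags) and Rps6ka1 (8.31, 39 against 5), the adaptor gene Crk (7.74, 23 against 2 or fewer) and the scaffold gene Ksr1 (7.56, 93 against 15). The fold at Crk rests on the caller's genome-wide average and has no limits. Limits were 4.08 to 67.1 at Rps6ka2, 4.03 to 33.2 at Rps6ka1 and 4.68 to 15.1 at Ksr1. A further 9 negative regulators ran from 4.1 kb (Dusp9) to 242 kb (Nf1), with a median of 68.3 kb, and likewise have no matched share. Of these, 7 carried a region (77.8%, where 45.5% of all protein-coding genes did). They were led by the ubiquitin ligase gene Cbl (7.53, 41 against 6) and the Ras inhibitor gene Nf1 (7.41, 29 against 4). Il17rd (6.01, 60 against 12) and the ERK phosphatase gene Dusp5 (5.38, 29 against 6) followed. Etv1, a further ETS factor, had 1 region of low fold (2.87, 50 against 22), and the remaining Fgf genes, Fgf13 and Fgf16 on chromosome X, had none.

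Captured DNA gives no expression, so the labelled cell type could not be checked against its markers. Of 10 myogenic marker genes 4 carried a region, and of 10 markers of other muscle-resident cells 7 did, where 45.5% of protein-coding genes did. The first list had a median gene length of 19.3 kb and the second of 46.6 kb, so the counts are not a contrast between cell types. Neither count measures how many such cells a culture held.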

How the data were processed

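Methylated DNA was captured with an MBD2-based kit from sheared genomic DNA and size selected to 250 to 350 bp, per the labels' protocols. Trim Galore, HISAT2 and mm10 are named in the submitters' processing notes. Regions were called with MACS2 2.2.6, per the file headers, with the oil alignment as treatment and the tamoxifen alignment as control, at most 1 tag per position, tags of 130 bp extended to 201 bp, the larger library scaled to the smaller, no regional background and a q cutoff of 1e-04. The deposited pileup is a signal value, the number of oil tags over the summit. The deposited fold enrichment is a ratio made by the authors' caller. The deposited −log10 p and −log10 q values compare 2 libraries, not 2 conditions, and their lost headings were read from their place in the caller's output.

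Tamoxifen tags were computed from pileup, fold and the library factor and came out whole, within 0.02 tags, in 97.5% of regions. The rest were at the genome mean. Genes were placed with the RefSeq table of GRCm38.p6 (34418 protein-coding and long noncoding genes). Another 213 such genes, mitochondrial or without a position on an assembled chromosome, were left out, Spry3 among them. Strand came from the RefSeq promoter windows. Overlap and tag recovery were tested on simulated data with Python 3.11.15 and SciPy 1.17.1. Every member is named. Values are given for each region of receptor, docking, inhibitor and ETS genes and for the strongest and best covered ligand regions, and the values of other ligand regions were added after they were seen. Other pathway genes are named by highest fold, up to 4 per list, and Ext1, Klb and Kl were named after their values were seen. Members and lists were chosen with earlier results of these data known.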

Additional observations from a re-analysis of the deposited data

How the results depend on the processing

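Of 74 recomputed values, 70 stayed in the range set for them, which was 1.5 times either way for counts and densities and the 95% limits for the median fold (3.94 to 5.11, from its order statistics) and the background share. Those limits treat regions and genes as independent, which regions of 1 gene are not. They served only as marks for this check and measure no spread between animals. At a q limit of 1e-10 the inhibitor genes with a region went from 2 to 1 and the members with a region near a gene end from 9 to 5, while the members with a region went from 17 to 13 (41.6% of protein-coding genes at that limit). With unscaled tamoxifen tags the median fold at member regions was 3.46, as leaving out the scaling lowers every fold, and 48 regions in 17 members still passed the p value that the weakest listed region had. Set against protein-coding and long noncoding genes together, the background share was 38.5% in place of 45.5%, outside the exact binomial limits of the latter (44.8 to 46.1%). With regions that overlap another protein-coding gene left out, a choice made after seeing the data, 14 members and 6 ligand genes carried a region, as Fgf1, Fgf7 and Fgf22 no longer did. No paired analysis was possible because each group holds 1 library and the result comes from no test. No library could be left out for the same reason. Depth sets the width of the limits: 31 oil against 3 tamoxifen tags at Fgf7 gave 4.23 to 69.3, and 158 against 56 at Spred2 gave 2.71 to 5.11.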
